A study of Mus musculus with 24 samples.

Results

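The semaphorins, plexins, neuropilins, ephrins, Eph receptors, Slits, Robos, netrins, Unc5 receptors and Dcc were examined in cultured mouse neural stem cells (NSCs). Members were taken by gene symbol, as the genes of these families that the deposited expression table lists, with no use of their values. This gave 66 of the 14922 genes in the table, 34 ligands and 32 receptors. They comprised 20 semaphorins, 9 plexins, 2 neuropilins, 8 ephrins, 12 Eph receptors, 3 Slits, 4 Robos, 3 netrins and the 5 genes of the Unc5 and Dcc receptors. Epha8, Epha10 and Ntn5 also match the symbols but are not listed in the table and were not analysed here.

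The cells were numbered female NSC lines from E14.5 cortex, grown as adherent cultures with EGF and FGF and used at early passage. Smchd1 encodes a non-canonical SMC protein that takes part in gene silencing and in X inactivation, and MommeD43 is a missense allele of it, studied for its effect on silencing. The FVB groups were FVB/NJ lines, either Smchd1+/+ (5 lines, 6 libraries) or homozygous for the MommeD43 allele that arose by chemical mutagenesis (4 lines, 5 libraries). The B6GFP groups were C57BL/6J lines carrying an Smchd1-GFP fusion at the endogenous gene on both copies. One of these groups had no further change, is labelled Smchd1+/+ and is called wild type here (4 lines, 6 libraries), and the other was homozygous for MommeD43 introduced by CRISPR/Cas9 editing into that fusion allele (4 lines, 5 libraries). All B6GFP lines, controls included, thus carry the fusion, so the strain, the fusion tag and the history of the allele cannot be told apart in any comparison between B6GFP and FVB. The labels do not say how the lines relate to embryos or litters, so p-values do not measure the spread between those. The fit used libraries with the line as a block. Repeat libraries of a line counted in it nearly as separate ones (block correlation 0.0827), so p-values measure the spread between libraries as well as lines. Some lines were sequenced in more than 1 batch. In total 22 libraries of 17 lines were used. Another 2 columns of the table equalled the mean of the other 5 columns of their group and were left out.

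Axon guidance cues are secreted or membrane-bound proteins that steer growing axons and migrating cells by attraction or repulsion. Semaphorins signal through plexins, with neuropilins as co-receptors for most secreted class 3 semaphorins. Ephrins and Eph receptors both sit in the membrane and signal between touching cells, A-type ephrins through a lipid anchor and B-type ephrins through a transmembrane protein. Slits bind Robo receptors, and netrins bind Dcc, which mediates attraction, and the Unc5 receptors, which mediate repulsion. In the embryonic cortex the same proteins are made by progenitors as well as by neurons, and Eph and semaphorin signalling is known to act on radial glia.

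Promoter sequence from RefSeq (GRCm38.p6) was matched by symbol for 56 of the 66 members, at 72 start sites. The 250 bases before the start are given for a netrin that was higher in B6GFP lines (Ntn4, chr10:93640799-93641048, plus strand), a netrin that was lower (Ntn3, chr17:24209388-24209637, minus strand), a netrin receptor that was lower (Unc5b, chr10:60831582-60831831, minus strand) and the semaphorin with the largest strain difference (Sema5a, chr15:32244563-32244812, plus strand), so that the genes whose levels are described can be compared in sequence. Each window lies directly before the annotated start of its gene. Capitals mark GGGCGG on either strand, including overlapping copies. The same 4 windows were searched on both strands for the CCAAT box. They were also searched for TATAAA, the core of the TATA box. The last motif was the E-box CACGTG. None of these 3 was found in them.
Ntn4: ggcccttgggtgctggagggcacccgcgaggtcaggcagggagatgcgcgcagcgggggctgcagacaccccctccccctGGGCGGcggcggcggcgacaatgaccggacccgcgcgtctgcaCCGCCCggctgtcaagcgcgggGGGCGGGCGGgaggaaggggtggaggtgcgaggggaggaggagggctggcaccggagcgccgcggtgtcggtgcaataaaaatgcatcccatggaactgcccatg
Ntn3: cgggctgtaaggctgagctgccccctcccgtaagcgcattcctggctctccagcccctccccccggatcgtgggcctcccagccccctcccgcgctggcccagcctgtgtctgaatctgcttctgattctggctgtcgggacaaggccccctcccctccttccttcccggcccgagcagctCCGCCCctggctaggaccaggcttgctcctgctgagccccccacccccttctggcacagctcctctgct
Unc5b: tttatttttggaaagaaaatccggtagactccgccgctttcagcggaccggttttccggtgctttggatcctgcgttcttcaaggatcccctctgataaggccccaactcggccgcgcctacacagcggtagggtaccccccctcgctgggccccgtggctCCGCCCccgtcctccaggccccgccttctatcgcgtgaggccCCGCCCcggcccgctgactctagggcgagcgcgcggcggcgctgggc
Sema5a: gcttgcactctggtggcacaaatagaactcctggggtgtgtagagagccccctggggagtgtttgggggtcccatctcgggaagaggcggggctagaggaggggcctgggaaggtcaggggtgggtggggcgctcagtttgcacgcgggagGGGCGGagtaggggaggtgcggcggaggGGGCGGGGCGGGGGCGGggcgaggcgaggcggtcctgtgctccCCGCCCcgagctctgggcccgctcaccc

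The windows were rich in G and C, with 73.2% in Ntn4, 69.2% in Ntn3, 66.8% in Unc5b and 72.0% in Sema5a. They held 26, 11, 27 and 17 CpG dinucleotides, in the same order. GGGCGG occurred 4 times in Ntn4, 1 time in Ntn3, 2 times in Unc5b and 5 times in Sema5a. It was found in 51 of the 72 member windows (70.8%) and in 32.7% of the 32851 windows of all genes in the RefSeq table, a set that also holds genes the NSC table does not list. The CCAAT box was found in 25.0% of member windows and 33.8% of all windows, the TATA motif in 2.78% and 12.4%, and the E-box in 4.17% and 6.02%. The median window held 15 CpG dinucleotides among members and 6 among all genes. These are letter matches in a fixed window and are given as a description of the sequences.

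The cells carried the defining genes of NSCs. Nes, Sox2, Vim, Fabp7 and Slc1a3 were at or above 7.39 log2 CPM (counts on the CPM scale, which divides by the library total, then taken to log2) in each of the 17 lines, and Pax6 lay between 4.34 and 5.23. All 8 NSC markers examined, Hes5 and Prom1 included, were above 1 CPM on average in every group. Hes5 differed between strains, as given below. None of 6 microglial markers was listed in the table, and the 4 fibroblast and meningeal markers listed were below 1 CPM on average in every group. Markers of other neural types were present. The summed level over the lines was 9.60 to 10.40 log2 CPM for neuronal and 10.45 to 11.11 for oligodendrocyte lineage markers. Absolute depth is unknown, since the table holds no counts. From the steps between the lowest values, the depth of a library relative to the deepest was 0.526 to 0.893 in batch 1, 0.137 to 0.19 in batch 2, which holds FVB lines alone, and 0.435 to 1 in batch 3, which holds B6GFP lines alone. A pair of libraries stood apart from their groups, B6GFP wild-type replicate 4 and B6GFP MommeD43 replicate 2. The SD of their gene differences from group mates was 0.793 and 0.806, against 0.217 to 0.509 in the other 20. In the second of them the neuronal genes Dcx (5.20 log2 CPM), Tubb3 (6.48) and Neurod6 (3.03) were above all 15 lines outside this pair, whose highest values were 2.32, 3.85 and -0.66. B6GFP MommeD43 replicate 2 also held the highest level of all 17 lines for 32 of the 66 members, and B6GFP wild-type replicate 4 the highest for 16 and the lowest for 19. Smchd1 itself ranged from 6.58 to 7.42 log2 CPM over the lines. It did not pass for MommeD43, a missense allele that need not alter it, and was lower in B6GFP lines in wild type (-0.22, adjusted p = 0.0143) and MommeD43 (-0.28, adjusted p = 0.0102).

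Members spanned a wide range of levels. Per kb of exon, the highest was Plxnb2 (6.08 log2 CPM per kb, mean over libraries), a plexin for class 4 semaphorins that is abundant in progenitors. It was followed by Sema6d (4.91), a transmembrane semaphorin, and the secreted netrins Ntn4 (4.65) and Ntn1 (4.46). Efnb1 (3.49) led the ephrins, Nrp1 (2.97) the neuropilins, Epha5 (2.80) the Eph receptors, Unc5b (2.15) the netrin receptors, Robo1 (1.26) the Robos and Slit1 (0.57) the Slits. At the other end were Slit3 (-6.28), Epha6 (-5.91), Robo4 (-5.37), a Robo of endothelium, and Sema3g (-5.26). Without correction for length, 26 members were above 4 log2 CPM, 30 between 0 and 4, and 10 below 0.

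**Figure D1:**
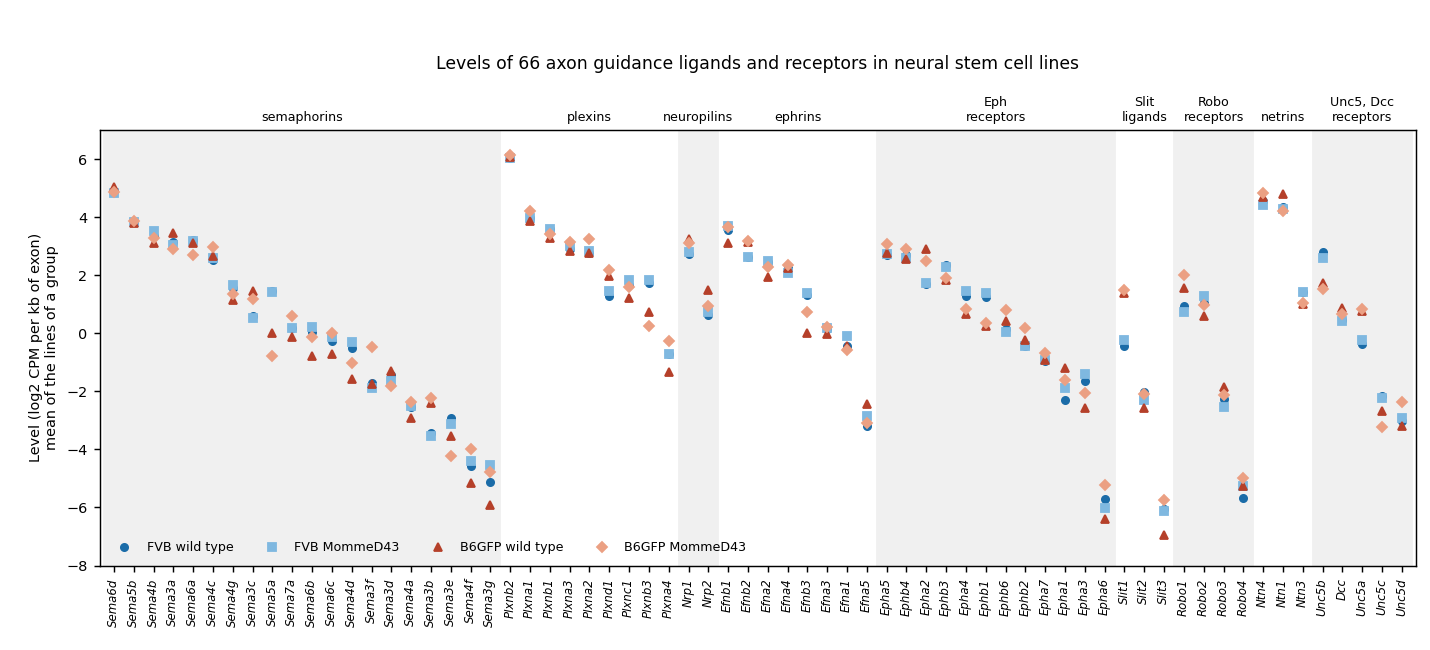
Level of each of the 66 members in log2 CPM per kb of exon (vertical axis), by family and in falling order within it (horizontal axis), with 1 symbol for the mean of the lines of each of the 4 groups. Levels run from 6.08 for Plxnb2 down to -6.28 for Slit3 over all libraries, and the 4 groups nearly coincide for Plxnb2 and Sema6d but are separated by strain for Slit1, Unc5b and Plxnb3.

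The lines of the 4 groups overlapped for 3 of the highest members. Plxnb2 was at 8.76 ± 0.08 log2 CPM (SD, n = 5 lines) in FVB wild type, 8.75 ± 0.03 (n = 4) in FVB MommeD43, 8.78 ± 0.08 (n = 4) in B6GFP wild type and 8.85 ± 0.13 (n = 4) in B6GFP MommeD43. Sema6d was at 7.73 ± 0.09, 7.69 ± 0.08, 7.87 ± 0.31 and 7.70 ± 0.30 in the same groups. Ntn1, the netrin that attracts commissural axons, was at 6.95 ± 0.19, 6.87 ± 0.20, 7.41 ± 0.52 and 6.83 ± 0.79. None of these 3 genes passed in any comparison. Ntn4, which ranked between Sema6d and Ntn1 per kb, passed between strains in both genotypes, as given below. Passing means an adjusted p under 0.05 in limma, with Benjamini-Hochberg adjustment over all 14922 genes.

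Between strains, many members differed, and they did so in both directions. Among wild-type lines 33 of 66 members passed, where 41.1% of all genes did. Of these, 15 were higher in B6GFP lines (17.9% of all genes were) and 18 were lower (23.2% of all genes). Among MommeD43 lines 26 passed (39.4%, against 34.4% of all genes), 8 higher (14.7% of all genes) and 18 lower (19.6%). The shares are to be read against those of all genes, which were also large. Ligands made up 15 of the 33 and receptors 18. The median log2 difference over members was -0.05 in wild type and -0.09 in MommeD43 lines, against -0.02 and -0.03 over all genes.

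The number of members that passed rested on how libraries were weighted and, in wild type, on 1 line. Without FVB wild-type replicate 2, 17 members passed in wild type (26.9% of all genes). Over the 17 fits that left out 1 line each, 13 of the 33 members passed in all in wild type and 20 of the 26 in MommeD43. The same was not counted over all genes, so whether members differ from other genes in this is not known. In a fit to the mean of each line, with no batch term, 23 members passed in wild type (35.6% of all genes). In MommeD43 32 did (44.5% of all genes). Each library had a quality weight in the fit, set by how closely it followed the model. Weights ran from 0.101 to 4.90, and the pair of libraries that stood apart had the lowest. With equal weights, 4 members passed among wild-type lines (8.44% of all genes), Slit1, Unc5b, Efnb3 and Ephb3, and 1 among MommeD43 lines (6.82%), Slit1. Batch 1 is the sole batch with both strains, so with the batch term it alone links the strains in the fit of all libraries too. Its values are therefore not an independent check. Within-batch values are those of batch 1, with 3 lines a strain in wild type and 2 in MommeD43. There 32 members passed in wild type (34.1% of all genes) and 25 in MommeD43 (24.1%), and with equal weights, a fit chosen after the data were seen, 22 (20.4%) and 23 (19.4%). In that last fit 18 members passed in both genotypes, all 18 in the same direction. The share of all genes that did so was not counted for that fit. In the fit of all libraries with weights, 4337 of the 4338 genes that passed in both had the same direction. Library centring moved the split over all genes in wild type from 2676 higher and 3455 lower to 3608 and 2544, and that of members from 15 and 18 to 17 and 15. In MommeD43 lines it moved the split from 2199 and 2927 to 3013 and 2265 over all genes and from 8 and 18 to 11 and 16 for members.

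**Figure D2:**
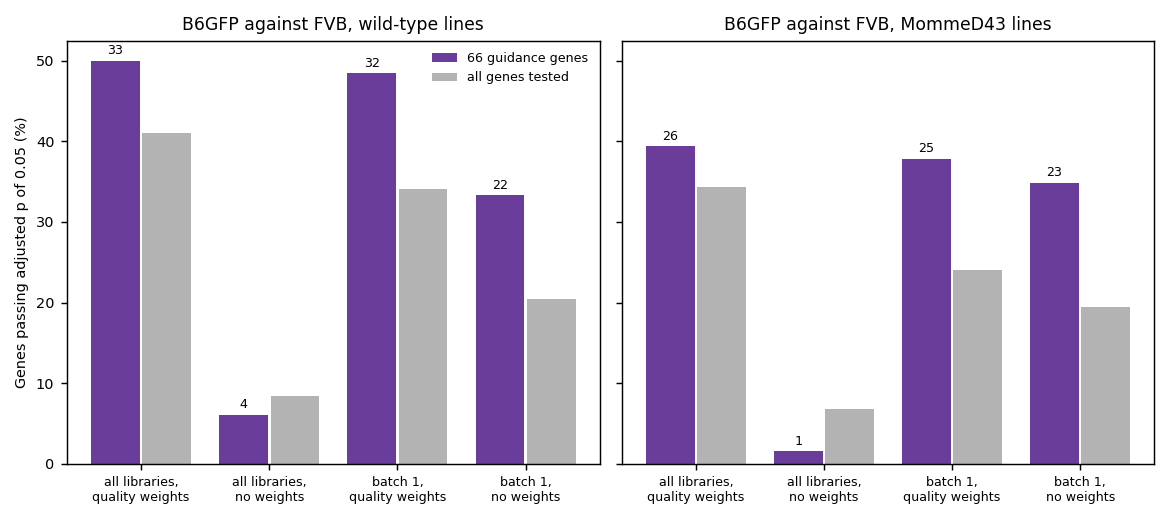
Share of genes passing an adjusted p of 0.05 between B6GFP and FVB lines (vertical axis, %), for the 66 guidance genes (purple, with the number that passed) and all genes tested (grey), in 4 fits along the horizontal axis. In wild-type lines the number falls from 33 to 4 without quality weights, while batch 1 alone gives 32 with and 22 without them, and the purple bar stays above the grey bar except in the fits of all libraries without weights.

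The strain differences recurred between genotypes. The comparison among wild-type lines and that among MommeD43 lines contrast different libraries, but both come from 1 fit that shares batch terms, weights and variances, so they are not independent. Passing in both were 24 members, all in the same direction, which is 72.7% of the wild-type list and 92.3% of the MommeD43 list. The same shares over all genes were 70.8% and 84.6%, with 4337 of 4338 genes in the same direction. Over all genes 29.1% passed in both in the same direction, against 36.4% of members. Lower in B6GFP lines in both were Sema3e, Sema4b, Sema4d, Sema4g, Sema5a, Sema6a, Plxnb1, Plxnb3, Plxnc1, Efnb3, Epha3, Epha4, Ephb1, Ephb3, Robo2, Ntn3 and Unc5b. Higher in both were Sema3c, Plxnd1, Efnb2, Epha2, Ephb6, Slit1 and Ntn4. A further 9 passed in wild-type lines alone and 2, Robo1 and Sema6b, in MommeD43 lines alone, but no member passed the test of the difference between the 2 effects. Of the members that passed in both, Plxnc1, Epha3 and Sema6a lost the threshold in each genotype in some fits that left out 1 line. Sema4b and Sema4g did so in wild type, Sema4b with an adjusted p of 0.293 without FVB wild-type replicate 2. Other such losses are given below.

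**Figure D3:**
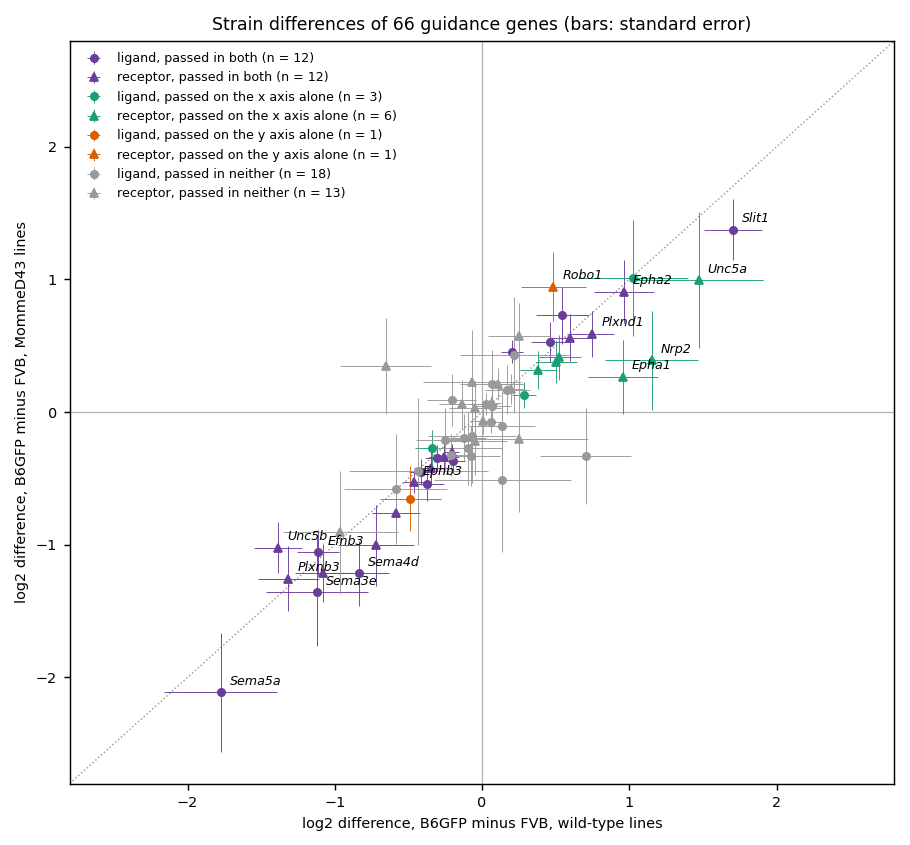
Strain difference (B6GFP minus FVB, log2) of each of the 66 members in wild-type lines (horizontal axis) and in MommeD43 lines (vertical axis), with standard errors as bars, circles for ligands and triangles for receptors, coloured by where the adjusted p was under 0.05. The 24 members that passed in both lie in the lower left or upper right quadrant, with Sema5a (-1.78 and -2.11) and Slit1 (1.70 and 1.38) at the ends.

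Slit1, a secreted ligand of the Robo receptors, was the member that passed in every fit of both genotypes shown in the plot of settings. It stood at 1.77, 2.68, 2.32, 2.21 and 1.58 log2 CPM in the 5 FVB wild-type lines and at 4.27, 4.35, 3.53 and 3.59 in the B6GFP wild-type lines. Among MommeD43 lines it stood at 2.12, 2.78, 1.98 and 2.36 in FVB and at 4.04, 3.86, 3.72 and 4.46 in B6GFP. Every B6GFP line was above every FVB line. The log2 difference was 1.70 (SE 0.20, adjusted p = 6.90e-07), 3.26-fold higher, in wild type and 1.38 (SE 0.23, adjusted p = 1.01e-04) in MommeD43, and it passed with equal weights in both (adjusted p = 7.50e-04 and 0.00549). Within batch 1 it was 1.70 and 1.40. Of the other Slits, Slit2 and Slit3 did not pass in either genotype (-0.25 and -0.59 in wild type). Slit3 was near the floor, with the same value (-3.67) in all FVB libraries of batch 2.

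Among their receptors, Robo1 was higher in B6GFP lines with MommeD43 (0.95, SE 0.26, adjusted p = 0.00758). In wild type its difference was 0.48 (adjusted p = 0.0853). Robo1 values were 3.64, 3.51, 4.20 and 3.27 in FVB MommeD43 lines and 4.49, 6.78, 4.49 and 4.01 in B6GFP MommeD43 lines, where 6.78 is the line with high neuronal genes. Robo2 went the other way and was lower in both genotypes (-0.35, adjusted p = 0.0184, and -0.42, adjusted p = 0.0189). Its wild-type call ended without FVB wild-type replicate 2 (adjusted p = 0.0567) or 3 (0.0714), or B6GFP wild-type replicate 3 (0.0508). Robo3 and Robo4, the low members of this family, did not pass.

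The netrin system differed member by member. Unc5b, a repulsive netrin receptor, was at 5.08, 5.83, 5.44, 5.22 and 5.23 log2 CPM in FVB wild-type lines and at 4.47, 3.60, 3.98 and 5.02 in B6GFP wild-type lines. In MommeD43 lines it was at 5.32, 5.05, 5.10 and 5.15 in FVB and 4.17, 4.45, 4.16 and 3.53 in B6GFP. The strains did not overlap in either genotype, and Unc5b was 2.61-fold lower in B6GFP wild type (log2 -1.38, SE 0.16, adjusted p = 9.86e-07) and 2.03-fold lower in MommeD43 (-1.02, SE 0.19, adjusted p = 3.39e-04). With equal weights it passed in wild type (adjusted p = 0.0146) and not in MommeD43 (0.0803).

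Its relative Unc5a was higher, by 1.47 (SE 0.44, adjusted p = 0.0101) in wild type, but its B6GFP lines were split. They stood at 1.63, 3.25, 3.82 and 2.31, against 1.29 to 2.04 in the FVB lines, so the strains overlapped. In batch 1 alone it did not pass (adjusted p = 0.177), nor did it without FVB wild-type replicate 2 (adjusted p = 0.0687). Dcc, the attractive receptor, was higher by 0.38 in wild type (adjusted p = 0.0174), with 0.32 in MommeD43 (adjusted p = 0.0948). Without FVB wild-type replicate 2 Dcc was at 0.30 (adjusted p = 0.144), and it also lost the threshold without B6GFP wild-type replicate 1 (adjusted p = 0.0577) or 3 (0.0545).

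Of the ligands, Ntn3 was lower in B6GFP lines, with a log2 difference of -0.41 in wild type (SE 0.08, adjusted p = 4.33e-04) and -0.45 in MommeD43 (SE 0.10, adjusted p = 0.00116). Ntn4, a netrin of basement membranes, was higher by 0.20 (adjusted p = 0.0328) and 0.46 (adjusted p = 3.77e-04). The wild-type call of Ntn4 ended without FVB wild-type replicate 2 (adjusted p = 0.0714) or 3 (0.0967), B6GFP wild-type replicate 1 (0.135) or 2 (0.225), or B6GFP MommeD43 replicate 1 (0.051). Ntn1 did not pass, at 0.17 in both genotypes.

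Sema5a, a transmembrane semaphorin, showed the widest strain difference. Its level was 5.05, 5.0, 4.68, 3.66 and 5.98 log2 CPM in FVB wild-type lines and 2.18, 2.57, 2.89 and 6.12 in B6GFP wild-type lines. In MommeD43 lines it was 4.98, 4.67, 5.85 and 3.89 in FVB and 2.39, 3.83, 3.40 and 0.97 in B6GFP. The value of 6.12 belongs to B6GFP wild-type replicate 4, one of the pair of libraries that stood apart, and the other B6GFP wild-type lines were below all FVB lines. Sema5a was 3.42-fold lower in B6GFP wild type (-1.78, SE 0.38, adjusted p = 8.96e-04) and 4.33-fold lower in MommeD43 (-2.11, SE 0.45, adjusted p = 0.00107). With equal weights it did not pass (adjusted p = 0.32 and 0.246).

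Plxnb3, which binds Sema5a and lies on the X chromosome, was lower as well. It was at 4.24, 4.83, 4.29, 3.75 and 4.55 in FVB wild-type lines and 3.30, 2.92, 3.39 and 3.62 in B6GFP wild-type lines, with no overlap. The difference was -1.31 (SE 0.21, adjusted p = 3.63e-05) in wild type and -1.25 (SE 0.24, adjusted p = 4.33e-04) in MommeD43. In the MommeD43 lines the strains met, since 1 B6GFP line was at 3.94 and 1 FVB line at 3.86.

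A second ligand and receptor known to bind each other were also both lower in B6GFP lines. Sema4d was at 1.42 to 2.56 in FVB wild-type lines and 0.51 to 0.88 in B6GFP wild-type lines (-0.83, SE 0.21, adjusted p = 0.00283). In MommeD43 lines it was 1.99, 1.83, 2.23 and 1.71 in FVB and 0.60, 3.06, 0.64 and 0.61 in B6GFP, so that 3 B6GFP lines agreed closely and the line with high neuronal genes was above all FVB lines. Its receptor Plxnb1 differed by -0.20 (adjusted p = 0.0031) and -0.30 (adjusted p = 5.86e-04), a small difference at a high level. Without B6GFP wild-type replicate 2 the wild-type difference of Sema4d was -0.57 (adjusted p = 0.0916).

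Sema3c was higher in B6GFP lines (0.55, adjusted p = 0.0208, and 0.73, adjusted p = 0.0118), as was Plxnd1, a receptor of vascular patterning (0.75, adjusted p = 4.07e-04, and 0.59, adjusted p = 0.0119). Nrp1 (0.50, adjusted p = 0.00655) and Nrp2 (1.15, adjusted p = 0.00601) were higher in wild type, with 0.38 (0.0778) and 0.39 (0.444) in MommeD43. The wild-type lines of Nrp2 overlapped, from 2.94 to 5.33 in FVB and from 3.86 to 5.78 in B6GFP. Without FVB wild-type replicate 2 the calls in wild type ended for Nrp2 (0.79, adjusted p = 0.126), Nrp1 (0.41, adjusted p = 0.0732) and Sema3c (0.55, adjusted p = 0.0847), and that of Sema3c also without B6GFP wild-type replicate 3 (0.38, adjusted p = 0.097). Sema3e, the class 3 semaphorin that binds Plxnd1, was an exception at a low level and was lower in both genotypes (-1.12 and -1.35), with the wild-type call lost without FVB wild-type replicate 2 (adjusted p = 0.0786) or B6GFP wild-type replicate 2 (0.0508), and the MommeD43 call without FVB MommeD43 replicate 2 (0.0799), B6GFP MommeD43 replicate 1 (0.0643) or B6GFP wild-type replicate 2 (0.0529). Of the 20 semaphorins, 9 passed in wild type (3 higher, 6 lower) and 8 in MommeD43 (1 higher, 7 lower), which is 45.0% and 40.0% of them against 41.1% and 34.4% of all genes. With equal weights 0 did in either genotype.

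**Figure D4:**
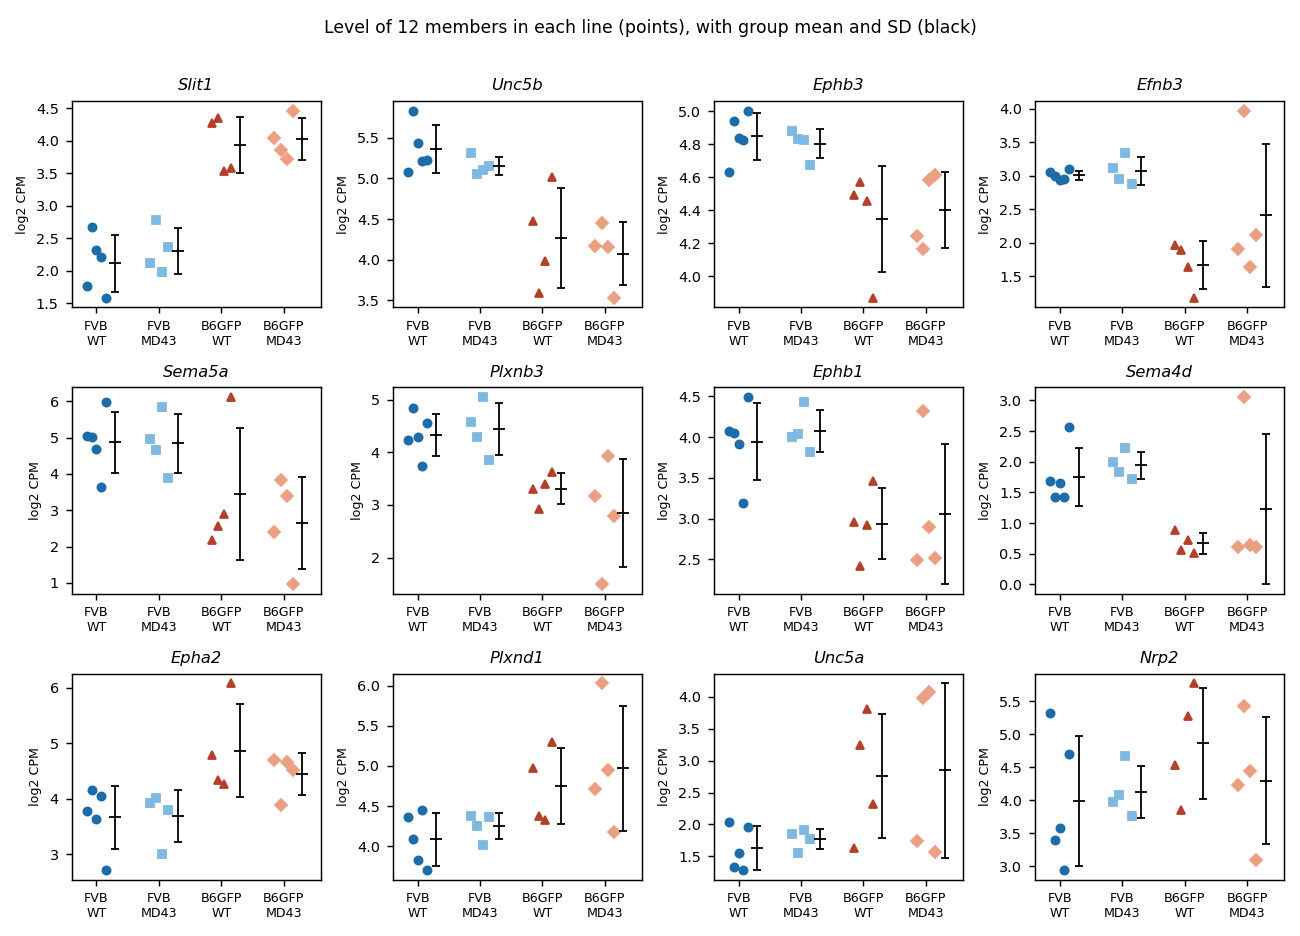
Level in log2 CPM (vertical axis, 1 scale per gene) of 12 members in each of the 17 lines, grouped by strain and genotype along the horizontal axis, with the mean and SD of each group in black. Slit1, Unc5b and Ephb3 separate the strains in both genotypes, whereas for Sema5a, Sema4d, Ephb1 and Nrp2 the strains overlap in at least 1 genotype, with 1 B6GFP line of Sema5a (6.12) and 1 of Sema4d (3.06) above all FVB lines.

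Ephrins and Eph receptors of the B class gave a mixed pattern. Efnb3 was at 3.05, 3.0, 2.93, 2.94 and 3.09 log2 CPM in FVB wild-type lines and at 1.97, 1.89, 1.64 and 1.17 in B6GFP wild-type lines. It was thus nearly constant among FVB lines and 2.16-fold lower in B6GFP (-1.11, SE 0.14, adjusted p = 3.03e-06; 0.0398 with equal weights). In MommeD43 lines it was 3.12, 2.94, 3.33 and 2.87 in FVB and 1.90, 3.97, 1.64 and 2.11 in B6GFP (-1.06, SE 0.17, adjusted p = 5.55e-05), again with the line of high neuronal genes above the rest. Efnb2 was higher in B6GFP lines, by 0.46 (adjusted p = 0.00758) and 0.53 (adjusted p = 0.0109). Efnb1, the X-linked member and the highest ephrin, did not pass (-0.21 and -0.32).

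Among the receptors of B-type ephrins, Ephb3 was at 4.63, 4.94, 4.84, 4.83 and 5.0 in FVB wild-type lines and 4.49, 4.57, 4.45 and 3.87 in B6GFP wild-type lines. The MommeD43 lines lay at 4.88, 4.83, 4.83 and 4.68 in FVB and at 4.24, 4.17, 4.59 and 4.62 in B6GFP. The strains did not overlap in either genotype although the difference was small, -0.46 (SE 0.07, adjusted p = 2.28e-05) and -0.53 (SE 0.08, adjusted p = 4.86e-05). Ephb1 was lower by more, with -1.08 (adjusted p = 1.11e-04) and -1.21 (adjusted p = 2.54e-04), with overlap in both genotypes. Ephb6, which lacks kinase activity, was higher (0.60, adjusted p = 0.00304, and 0.56, adjusted p = 0.0172), but not past the threshold without replicate 2 of FVB wild type (0.49, adjusted p = 0.055) or of FVB MommeD43 (0.36, adjusted p = 0.0723).

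Of the A-class receptors, Epha2 was 1.95-fold higher in B6GFP wild type (0.96, SE 0.20, adjusted p = 7.28e-04), its FVB values ranging from 2.71 to 4.17 and its B6GFP values from 4.26 to 6.09. In MommeD43 lines it was higher by 0.91 (adjusted p = 0.00559). Epha1 was higher in wild type (0.96, adjusted p = 0.00283), and its difference in MommeD43 was 0.27 (adjusted p = 0.488). Epha4, which binds ephrins of both classes, was lower in both genotypes (-0.58, adjusted p = 0.00767, and -0.76, adjusted p = 0.00468), and its wild-type call ended without B6GFP wild-type replicate 2 (adjusted p = 0.0609). Epha5, the highest Eph receptor, did not pass (0.20 and 0.18). In all, 8 of the 12 Eph receptors passed in wild type, 4 in each direction, and 6 in MommeD43, 2 higher and 4 lower (41.1% and 34.4% of all genes passed). With equal weights 1 and 0 did.

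Counting lines that do not overlap uses no weights. Among wild-type lines 12 members separated the strains completely, 2 higher and 10 lower, against 15.9% of all genes. Slit3 and Epha6, among the 10 lower, lay near the floor. Each had a single repeated value (-3.67 and -3.90) in the libraries of batch 2, which holds FVB lines alone. Whether their separation reflects levels was not tested. Among MommeD43 lines 9 did, 3 higher and 6 lower, against 21.3%. In both genotypes and the same direction only Slit1, Unc5b and Ephb3 did so, 3 of 66, where 8.62% of all genes did. The share of members lay below that of all genes in this count over both genotypes.

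MommeD43 gave no member past the threshold in either strain. In FVB lines 0 of 66 members passed in limma, where 0.0737% of all genes did. An unadjusted p under 0.05 was found for 4 members and for 1024 of all 14922 genes. In B6GFP lines 0 passed (0.0% of all genes) and 1 had an unadjusted p under 0.05 (319 of all genes). Averaged over strains 0 passed (0.0335% of all genes), with 1 at an unadjusted p under 0.05 (690 of all genes). For the difference of the effect between strains 0 passed (0.0%), with 3 at an unadjusted p under 0.05 (459 of all genes). With equal weights the counts at an unadjusted p under 0.05 were 0, 1, 0 and 0 for members. They were 151, 402, 296 and 95 for all genes. Without FVB MommeD43 replicate 2, 2 members passed in FVB lines (6.54% of all genes), Sema6b (0.53, adjusted p = 0.0469) and Efna1 (0.46, adjusted p = 0.0431). No member separated the lines of the genotypes completely in FVB (1.05% of all genes did) or in B6GFP (1.23%).

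Most differences were of the order of their errors, and a p that misses the threshold does not show that levels were equal. In FVB lines 64 of 66 members differed by less than 0.5 on the log2 scale and in B6GFP lines 65, with a median SE of 0.15 and 0.20. Of all 14922 genes, 14391 in FVB and 14457 in B6GFP lines differed by less than 0.5. The median log2 difference over members was 0.05 in FVB, 44 members lying above 0 and 22 below, and 0.002 in B6GFP, 34 above and 32 below. Over all genes it was 0.01 in both, with 8503 above 0 and 6401 below in FVB and 8269 and 6651 in B6GFP.

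**Figure D5:**
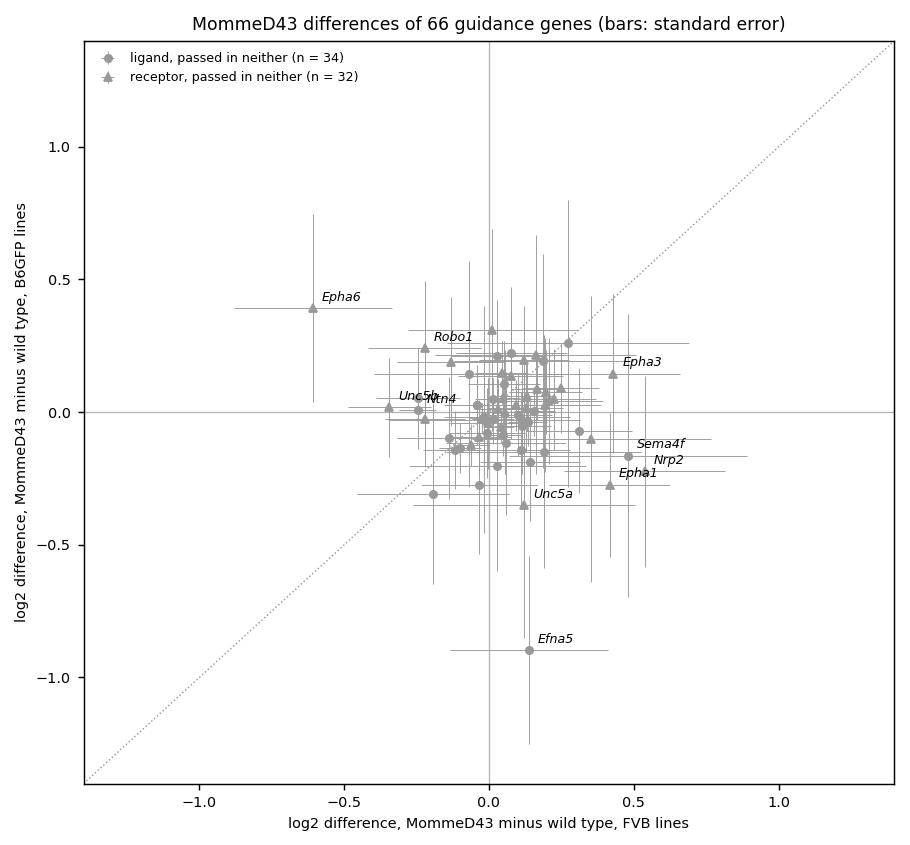
MommeD43 difference (MommeD43 minus wild type, log2) of each of the 66 members in FVB lines (horizontal axis) and in B6GFP lines (vertical axis), with standard errors as bars, circles for ligands and triangles for receptors. None passed in either strain. The members beyond 0.5 are Epha6 (-0.61) and Nrp2 (0.54) in FVB lines and Efna5 (-0.90) in B6GFP lines.

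The member with the smallest p was Ntn4 in FVB lines. It was at 6.45, 6.53, 6.42, 6.58 and 6.20 log2 CPM in wild type and at 6.36, 6.13, 6.22 and 6.43 in MommeD43, so the genotypes overlapped. The difference was -0.25 (SE 0.07, adjusted p = 0.202), with -0.21 within batch 1 and -0.25 within batch 2. In B6GFP lines it was 0.008, and the difference between strains of 0.25 did not pass (adjusted p = 1). Unc5b was next in FVB lines (-0.34, SE 0.14, adjusted p = 0.605), with 0.02 in B6GFP lines. Epha6 followed (-0.61, adjusted p = 0.669), at -3.73 ± 0.19 in wild type and -4.05 ± 0.20 in MommeD43. These levels are near the floor, since all FVB libraries of batch 2, of both genotypes, held the same value (-3.90).

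In B6GFP lines the smallest p belonged to Efna5, an A-type ephrin with graded expression in the developing brain (-0.90, SE 0.35, adjusted p = 1). Its values were -0.59, -0.72, -0.96 and 0.56 in wild type and -1.65, 0.50, -1.17 and -2.02 in MommeD43. The difference was -0.94 within batch 1 and 0.01 within batch 3. Ephb3 (-0.12) and Ntn3 (-0.14) came next, both with an adjusted p of 1. Averaged over strains Ntn4 (-0.12), Ntn3 (-0.12) and Ephb3 (-0.09) had the smallest p, each with an adjusted p of 0.999.

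Smchd1 acts on the inactive X chromosome, and 3 members are X-linked. None of them passed for MommeD43. The differences were 0.10 in FVB and -0.01 in B6GFP lines for Efnb1, 0.09 and 0.03 for Plxna3, and 0.08 and 0.14 for Plxnb3. Slit1, the member with the clearest strain difference, had 0.14 in FVB and -0.19 in B6GFP lines, neither past the threshold.

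Genes that act beside the members were examined as 26 adaptors and collapsin response mediators, all in the table, and 26 other guidance ligands, receptors and co-receptors, 24 of them in the table. None passed for MommeD43 in either strain. Between strains 7 of the adaptors and mediators were higher and 7 lower in B6GFP wild-type lines, and 5 and 7 in MommeD43 lines. Of the 24 other genes 3 were higher and 4 lower in wild type, and 4 and 3 in MommeD43. Of all genes 17.9% were higher and 23.2% lower in wild type, and 14.7% and 19.6% in MommeD43. The collapsin response mediators Dpysl2, Dpysl3 and Dpysl4, which act downstream of semaphorins, had log2 differences of -0.42, -0.38 and -0.52 in wild type and passed in both genotypes. With equal weights 3 of the adaptors and mediators and 0 of the 24 other genes passed in each genotype. Dpysl4 then passed in wild type (adjusted p = 0.0148) and not in MommeD43 (0.49), and Dpysl2 and Dpysl3 passed in neither.

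Cell type markers differed between strains as well. All 4 astrocyte markers were lower in B6GFP lines in both genotypes, where 23.2% and 19.6% of all genes were. With equal weights 1 of the 4 passed in wild type and 3 in MommeD43. Their summed level was 6.14 to 6.95 log2 CPM in FVB wild-type lines, 6.58 to 7.57 in FVB MommeD43, 4.38 to 6.71 in B6GFP wild type and 5.06 to 5.56 in B6GFP MommeD43. Aldh1l1 alone was at 4.33 to 7.48, and Gfap, Aqp4 and S100b were at or below 2.72 log2 CPM in every line. Of 8 NSC markers, 2 were higher and 5 lower in wild type, and 2 and 4 in MommeD43, with Nes higher (0.67) and Hes5, a target of Notch, lower (-2.66) in wild type. Their summed level was 12.37 to 12.92 in all lines.

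Of 8 neuronal markers, 1 was higher and 2 lower in wild type and 2 and 1 in MommeD43. The counts were 1 lower of 3 intermediate progenitor markers in both genotypes, 2 higher and 1 lower of 6 oligodendrocyte lineage markers in wild type and 2 and 2 in MommeD43, 0 of 4 endothelial markers, 1 lower of 4 fibroblast and meningeal markers in both, 1 lower of 4 dorsal forebrain markers in wild type and 0 in MommeD43, and 1 lower of 4 ventral forebrain markers in both. No marker passed for MommeD43. Their part in the strain differences of the members was not tested, and in such bulk libraries fewer cells that make a gene and less RNA per cell cannot be told apart.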

How the data were processed

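RNA-seq of 24 libraries was deposited as 1 table of log2 CPM, which the authors had corrected for batch. Per the study's methods that correction was made together with libraries not used here and also took account of sex and strain, so strain differences may be altered by it. A batch term fitted to all 24 columns was at most 7.0e-09. The submitters' processing notes name bcl2fastq, Trim Galore 0.4.4, HISAT2 2.0.5, limma 3.40.6 and the build GRCm38.p6. The table is named as counts but holds no counts, so no count test was run, and the depth is known only relative to the deepest library.

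A pair of columns (FVB MommeD43 replicate 3 and B6GFP MommeD43 replicate 2, both in batch 1) equalled the mean of the other 5 columns of their group within 1e-07 and were left out. A linear model was made for the 22 other libraries in R 4.3.3 (limma 3.58.1). Its terms were group and batch, the line was a block (correlation 0.0827), and quality weights per library and a mean-variance trend were used. Benjamini-Hochberg adjustment ran over all 14922 genes, and the script was tested on simulated data. Line values are means over the libraries of a line. Per-kb levels used the exon length of each gene. Alternatives numbered 34, of which 17 left out 1 line each.

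The members and lists were chosen with earlier results of these data known. Named in full were, in each MommeD43 comparison, the 3 members with the smallest p, in each strain comparison the 8 higher and 8 lower with the smallest p, and the highest member of each family, 28 genes in all. Other members with values, among them Unc5a, Dcc, Epha4, Sema3e, Robo2, Slit2, Slit3, Sema6b, Efna1 and Plxna3, and the signalling genes and markers with values were chosen after their values were seen. One further group of signalling genes is not reported here.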

Additional observations from a re-analysis of the deposited data

Results flagged for a closer look

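In 112 tests, each of the lines of 1 group for 1 named member, 6 had a line far from its group mates, where chance gives about 1 in 20. Sema4d was at 3.06 log2 CPM in B6GFP MommeD43 replicate 2, with the other 3 lines at 0.60 to 0.64, and Ephb2 was at 4.52 in the same line, with the others at 3.23 to 3.45. This is the line with high neuronal genes, whose part in these values was not tested. Ephb3 was at 3.87 in B6GFP wild-type replicate 4, the other library that stood apart, with the others at 4.45 to 4.57.

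In FVB wild-type replicate 4, Efna5 was at -2.66 with the others at -1.05 to -0.64, and Efnb1 was at 5.66 with the others at 5.10 to 5.20. Sema4d was at 2.56 in FVB wild-type replicate 5, with the others at 1.42 to 1.69. Both of these lines were sequenced in batch 2 alone, where relative depth was lowest.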

How the results depend on the processing

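No named difference that passed changed sign under any alternative run, while some that had not passed did, such as Efna5 for MommeD43 in B6GFP lines (-0.90, and 0.01 in batch 3 only). Without quality weights the members passing between strains went from 33 to 4 in wild type and from 26 to 1 in MommeD43 lines. In alternatives chosen after seeing the data, 22 and 23 passed in batch 1 only with no quality weights (20.4% and 19.4% of all genes). With the 2 libraries of lowest weight left out and no quality weights 11 and 9 passed (16.2% and 12.2% of all genes). With centring and no quality weights 3 (8.64% of all genes) and 1 passed. Leaving out 1 line at a time gave 17 to 33 in wild type and 25 to 35 in MommeD43. The share of all genes that passed moved as well, in wild type from 26.9% to 42.9%. For MommeD43 against wild type, leaving out 1 line gave 0 to 2 members in FVB and 0 in B6GFP, in the average and in the difference. With all 24 columns, the group-mean columns included, 2 passed in FVB (3.42% of all genes), 1 in B6GFP (3.22%) and 6 in the average (6.77%). Between strains in MommeD43 lines 62 then passed, where 93.8% of all genes did. The replicate numbers did not pair the lines (correlations -0.484 to 0.138). With the replicate block 1 member passed in FVB (Ntn4, -0.29, adjusted p = 0.03), where 0.918% of all genes did. Between strains 32 and 26 did (46.0% and 32.6% of all genes). The causes were not tested. Absolute depth is unknown, so no limit from counting could be set for members near the floor.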
